A study of Mus musculus with 12 samples.

Results

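The T cell receptor complex and its first signalling partners were followed as 9 genes in a mouse model of T-ALL, the acute leukaemia that arises from immature T cells. They were Cd3e, Cd3d, Cd3g and Cd247, which encode the signalling chains of the receptor, the kinases Lck, Fyn and Zap70, and the adaptors Lat and Lcp2. The set was chosen by gene symbol, and each symbol stood on a single line of the 23174 lines in each of 2 tables of expression values. All 9 genes passed a minimum mean of 1 FPKM in both tables, among 10245 genes ex vivo and 10741 in tumours. FPKM counts sequenced fragments per length of transcript and per mapped fragment of the library, so levels can be compared between genes.

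The series holds 12 RNA-seq samples on the C57BL/6 background in 4 groups of 3, all labelled Notch1-deltaE+, an activated form of Notch1 that drives T-ALL. Ex vivo, leukaemia cells were treated with AMD3100, an antagonist of CXCR4, the receptor of the chemokine CXCL12, or with vehicle, and the groups share the sample numbers 1, 2 and 3. The primary tumours were labelled Cxcr4+/+ (WT, numbers 1, 2 and 4) or Cxcr4-/- (KO, numbers 5, 7 and 8), and both comparisons ask what the leukaemia expresses when CXCR4 is blocked or missing. The labels describe spleen-derived cells grown with IL-7 at 5 ng/ml over OP9 bone marrow stroma that had been treated with mitomycin C, and they give this for every sample, tumours included. The sources used here do not give mouse age, AMD3100 dose and exposure time, the promoter behind the Notch1 allele, or the method and cell type of the Cxcr4 deletion. The labels do not say whether the samples within a group are separate mice or cultures. The p-values thus reflect the spread between these samples alone, which may not be the spread between mice.

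The T cell receptor recognises peptide bound to MHC but has no signalling tail of its own. It signals through the CD3 gamma, delta and epsilon chains and the CD247 (zeta) homodimer, whose cytoplasmic tyrosine motifs are phosphorylated by LCK and FYN. ZAP70 docks on those motifs and phosphorylates LAT and LCP2 (also called SLP-76), which assemble the enzymes that raise calcium and activate Ras. In developing thymocytes the same CD3 chains serve the pre-T cell receptor, in which PTCRA takes the place of the alpha chain.

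The genes for the 3 CD3 chains lie next to each other on mouse chromosome 9, whereas the other members lie on other chromosomes. The 250 bases before the annotated start are shown for 5 members, the 3 clustered genes, Cd247 and Lat. The clustered genes had their lowest value of each ex vivo group in the sample numbered 3, and Cd247 and Lat their highest. Zap70 and Fyn were also lowest there in each group but are not printed. The sequences are from RefSeq on build GRCm38.p6, which is not the build mm9 of the expression values. They are printed 5′ to 3′ on the gene's own strand, and capitals mark every CANNTG, the E-box that basic helix-loop-helix factors such as the E proteins recognise.

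Cd3e, chr9:45009612-45009861, minus strand: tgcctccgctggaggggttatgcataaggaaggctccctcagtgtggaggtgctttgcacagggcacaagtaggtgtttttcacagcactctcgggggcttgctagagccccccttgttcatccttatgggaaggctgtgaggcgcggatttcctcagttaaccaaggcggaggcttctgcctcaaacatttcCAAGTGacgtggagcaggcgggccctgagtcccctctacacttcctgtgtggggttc

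Cd3d, chr9:44981536-44981785, plus strand: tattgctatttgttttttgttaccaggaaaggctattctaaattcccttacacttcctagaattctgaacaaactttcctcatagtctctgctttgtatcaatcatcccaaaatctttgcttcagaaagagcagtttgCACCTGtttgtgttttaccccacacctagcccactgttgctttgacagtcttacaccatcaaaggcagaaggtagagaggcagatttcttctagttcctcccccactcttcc

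Cd3g, chr9:44980432-44980681, minus strand: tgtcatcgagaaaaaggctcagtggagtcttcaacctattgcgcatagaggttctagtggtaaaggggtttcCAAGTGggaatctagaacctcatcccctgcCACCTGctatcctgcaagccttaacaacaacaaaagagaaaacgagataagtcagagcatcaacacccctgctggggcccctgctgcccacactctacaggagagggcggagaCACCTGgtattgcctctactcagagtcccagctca

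Cd247, chr1:165788431-165788680, plus strand: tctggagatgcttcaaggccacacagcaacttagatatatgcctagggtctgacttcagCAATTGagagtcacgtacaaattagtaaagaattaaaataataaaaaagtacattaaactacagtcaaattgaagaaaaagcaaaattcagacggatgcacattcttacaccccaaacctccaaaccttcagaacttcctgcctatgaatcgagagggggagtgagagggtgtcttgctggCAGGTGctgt

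Lat, chr7:126369569-126369818, minus strand: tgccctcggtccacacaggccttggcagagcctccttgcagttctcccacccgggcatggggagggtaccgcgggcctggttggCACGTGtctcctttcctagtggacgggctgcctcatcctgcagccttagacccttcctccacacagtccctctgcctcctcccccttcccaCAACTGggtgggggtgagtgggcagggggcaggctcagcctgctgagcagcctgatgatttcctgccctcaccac

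The motif CANNTG is its own reverse complement, so a match lies on both strands, and it was found in 66.2% of all 32851 promoter windows of this length. The narrower form CAGGTG, sought on both strands, is one of the CANNTG sequences and was found in 17.2% of them. Cd3g held 3 CANNTG matches, of which 2 were CAGGTG, and Cd3d held 1, which was CAGGTG. Cd3e had 1 CANNTG match, Cd247 had 2 with 1 CAGGTG among them, and Lat had 2. CAGGTG was not found in the Cd3e and Lat windows. Lck has 2 annotated starts and Zap70 has 3, and these genes, Lcp2 and Fyn matched the promoter table too but are not printed. The Fyn window and 1 of the 2 Lck windows held no CANNTG. The Fyn window had 21 CG dinucleotides, where the windows of the other members had 0 to 7.

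Whole-library measures bear on the values below. Summed FPKM lay between 444803 and 480468 in the ex vivo libraries and between 368118 and 581159 in the tumours, and read totals are unknown because FPKM does not keep them. A reference of 7 other T lineage genes (Thy1, Cd2, Cd5, Cd6, Bcl11b, Tcf7 and Gata3) was present in every library, which fits the T cell label. Its mean log2(FPKM + 1) level spanned 6.69 to 7.07 ex vivo and 6.03 to 8.07 in tumours. Haemoglobin genes took at most 0.000139% of summed FPKM ex vivo and 1.29% to 23.0% in tumours. Cxcr4 was at 241, 155 and 206 FPKM in WT tumours and at 23.2, 78.9 and 21.9 FPKM in KO tumours 5, 7 and 8. The genotypes did not overlap for this gene, although KO 7 kept the most Cxcr4 RNA of the 3, and the sources used here do not say which part of the gene was deleted. The log2 change was -2.49 (SE 0.51), and no call was made over all genes (limma adjusted p = 0.986).

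The members were among the most abundant transcripts of the cultured leukaemia cells. Together they took 0.669% to 0.885% of summed FPKM ex vivo. Cd3g ranked between 33 and 76 of all 23174 lines in the 6 ex vivo libraries, while Fyn, the lowest member, ranked between 1342 and 2268. In vehicle the mean levels per length descended from Cd3g (986 ± 255 FPKM, SD, n = 3 here and for later means) through Cd3e (743 ± 246), Lck (646 ± 38.2), Lat (493 ± 108) and Cd3d (412 ± 120.3). Below these came Cd247 (197 ± 40.7), Zap70 (128 ± 18.5), Lcp2 (90.6 ± 7.68) and Fyn (50.1 ± 7.59). Neighbours in the upper part of this order, from Cd3g down to Cd3d, overlapped in their vehicle values. From Cd3d downward each neighbour was separated from the next in all 3 vehicle libraries. Lck RNA stood far above that of its relative Fyn in cultured cells.

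In same-numbered pairs of ex vivo samples, AMD3100 went with lower Cd3g and higher Lcp2 and Fyn, while the other 6 members were not called. Cd3g fell by 0.46 on the log2 scale, Lcp2 rose by 0.34 and Fyn by 0.34. The fit with samples paired by number called 3 of 9 members, where it called 19.9% of all genes (9.96% higher and 9.92% lower). The fit without pairing called none of the 9 and 0.127% of all genes (0.0488% higher and 0.0781% lower), and 2 members (Lcp2 and Fyn) had an unadjusted p under 0.05 there, as did 21.5% of all genes. The median log2 change over the 9 members was 0.056, beside 0.0022 over all genes tested. A member count of 3 is too small to set apart from the share called among all genes. All changes are on the log2(FPKM + 1) scale, and a call is a limma adjusted p under 0.05.

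Among the receptor chains, Cd3g encodes CD3 gamma, which pairs with CD3 epsilon. Its level was 1159.9, 1105 and 694 FPKM in vehicle 1, 2 and 3, and 834, 828 and 496 FPKM in AMD3100 1, 2 and 3. The groups overlapped because both samples numbered 3 were low, but within every pair the AMD3100 sample was the lower, by 0.48, 0.42 and 0.48 on the log2 scale. Its mean was 986 ± 255 FPKM in vehicle and 719 ± 193 FPKM with AMD3100 (log2 -0.46, paired SE 0.08, limma adjusted p = 0.0251 paired and 0.435 unpaired).

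Cd3d, the CD3 delta gene next to it, was at 503, 457 and 276 FPKM in vehicle and at 445, 389 and 236 FPKM with AMD3100. It was lower in 3 of 3 pairs, by a smaller step than Cd3g, and was not called (log2 -0.21, limma adjusted p = 0.0844 paired). Cd3e, the CD3 epsilon gene, was at 914, 854 and 462 FPKM in vehicle and at 819, 1011 and 721 FPKM with AMD3100. Its direction differed between pairs, with log2 differences of -0.16, 0.24 and 0.64, so the 3 clustered genes did not share a direction (log2 0.24, limma adjusted p = 0.325 paired).

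Cd247, the zeta chain gene, was nearly level between the groups. Its values were 173, 174 and 244 FPKM in vehicle and 187, 189.8 and 237 FPKM with AMD3100. The paired log2 change was 0.07, with a 95% interval from -0.11 to 0.24. Here the samples numbered 3 were the highest of each group, the reverse of the CD3 cluster.

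**Figure D1:**
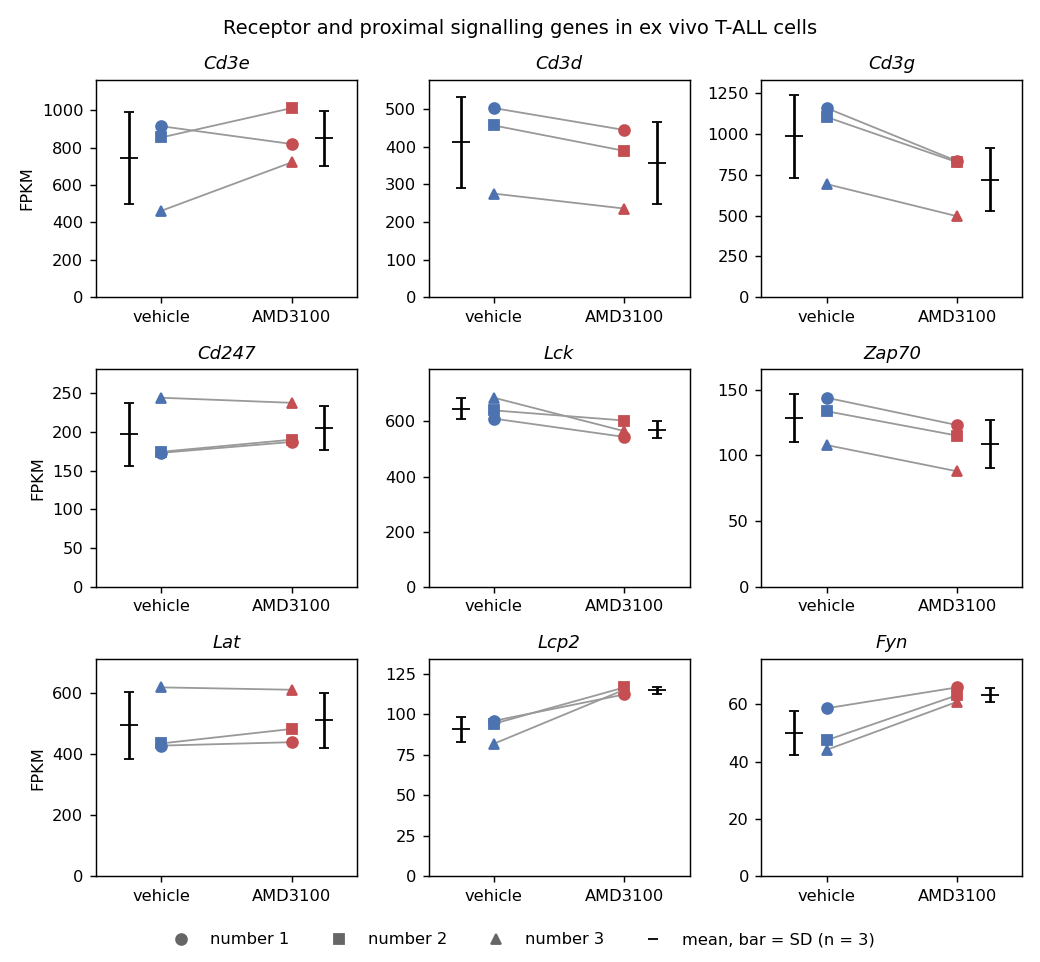
FPKM of the 9 genes in vehicle and AMD3100 samples of ex vivo T-ALL cells. Lines join samples with the same number (circle 1, square 2, triangle 3), and black marks give the mean and SD of 3 samples. Cd3g is lower and Lcp2 and Fyn are higher with AMD3100 in all 3 pairs. The samples numbered 3 are the lowest of their group for the CD3 genes, Zap70 and Fyn and the highest for Cd247 and Lat.

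Of the kinases, FYN and LCK are Src family members that phosphorylate the CD3 and zeta tails. Fyn was at 58.6, 47.5 and 44.1 FPKM in vehicle and at 65.9, 63.2 and 60.9 FPKM with AMD3100. Every AMD3100 value lay above every vehicle value, and the mean went from 50.1 ± 7.59 to 63.3 ± 2.51 FPKM (log2 0.34, paired SE 0.08, limma adjusted p = 0.0465 paired and 0.178 unpaired). Lck showed the other order, with 610.4, 640.3 and 686 FPKM in vehicle and 544, 603 and 565 FPKM with AMD3100. Its groups did not overlap either, but it was not called (log2 -0.18, limma adjusted p = 0.172 paired). ZAP70, the kinase that docks on the phosphorylated chains, had values of 144, 133 and 108 FPKM in vehicle and 123, 115 and 87.8 FPKM with AMD3100. Zap70 was lower in 3 of 3 pairs and missed the threshold narrowly (log2 -0.24, limma adjusted p = 0.0518 paired).

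The adaptors did not move alike. Lcp2, which encodes the cytosolic adaptor SLP-76, was at 95.9, 94.1 and 81.8 FPKM in vehicle and at 112, 117 and 115 FPKM with AMD3100. The groups were separated, and the AMD3100 values were tightly grouped (90.6 ± 7.68 to 115 ± 2.21 FPKM, log2 0.34, paired SE 0.08, limma adjusted p = 0.0410 paired and 0.0972 unpaired). Lat, the membrane adaptor that LCP2 binds through a linker, was at 427, 434 and 618 FPKM in vehicle and at 439, 482 and 610.0 FPKM with AMD3100. Its paired log2 change was 0.06, with a 95% interval from -0.14 to 0.25.

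Across the set, 3 members (Lck, Lcp2 and Fyn) had groups that did not overlap, where 28.9% of all genes did (13.1% higher and 15.8% lower), and 6 had the same direction in all 3 pairs, where 60.1% of all genes did (30.8% higher and 29.4% lower). These shares lie close to those of the whole table. Without the samples numbered 1, 2 or 3, the log2 changes stayed between -0.48 and -0.45 for Cd3g, 0.27 and 0.40 for Lcp2 and 0.29 and 0.43 for Fyn. With 2 pairs limma called none of the 9 members, with adjusted p from 0.0506 to 0.113 for Cd3g, 0.0761 to 0.133 for Lcp2 and 0.102 to 0.169 for Fyn, while the count over all genes went from 2036 to 9, 7 and 1207. Correcting the paired values for transcript length left 1 of the calls, that of Cd3g (log2 -0.38, limma adjusted p = 0.0434). Lcp2 (log2 0.35, limma adjusted p = 0.0537) and Fyn (log2 0.36, limma adjusted p = 0.0589) kept their size but narrowly missed the threshold. The uncalled falls of Zap70, Lck and Cd3d shrank to log2 -0.14, -0.07 and -0.06 (limma adjusted p = 0.165, 0.547 and 0.542).

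The 7 other T lineage genes did not share a direction. Thy1 and Tcf7 were lower with AMD3100 in every pair, Bcl11b, Gata3 and Cd6 were higher in every pair, and Cd2 and Cd5 were mixed. The mean log2 change of the 7 reference genes was 0.21 and their median was -0.07, and the paired fit called 2 of the 7 higher. Scaled to their mean, which shifted the median over all genes to -0.20, Lcp2 and Fyn had log2 changes of 0.13 and 0.14 (limma adjusted p = 0.364 and 0.371 paired), and Cd3d, Cd3g, Lck and Zap70 were called lower, as were 2822 genes in all against 337 called higher. Cytotoxic markers were also present: the summed level of the NK and cytotoxic list was 1284 to 2897 FPKM in vehicle and 1523 to 3647 FPKM with AMD3100, nearly all of it Gzma, with 3 of 8 genes past 1 FPKM and the NK receptor genes Ncr1 and Klrk1 listed at 0 in all 6 libraries. Markers of neutrophils were listed at 0 throughout. The stromal list, for which the OP9 feeder is a possible source, had 5 of 6 genes past 1 FPKM. It summed to 152, 183 and 10.7 FPKM in vehicle and to 168, 199.2 and 21.2 FPKM with AMD3100, mainly through Pdgfrb. Cxcl12 was at 3.84 to 15.9 FPKM, and Col1a1, Col1a2, Col3a1 and Sparc were at most 3.81 FPKM. In WT tumours 1 and 4 Pdgfrb was at 11.8 and 9.08 FPKM, with the other stromal genes listed at 0, so the sum follows Pdgfrb more than the list. Ex vivo the sum was low in the samples numbered 3 of both groups, with Pdgfrb at 4.20 and 11.2 FPKM there and at 136 to 186 FPKM in the others. These are the samples with low CD3, Zap70 and Fyn values and high Cd247 and Lat values. The part of culture composition in the changes of the 9 genes was not tested.

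**Figure D2:**
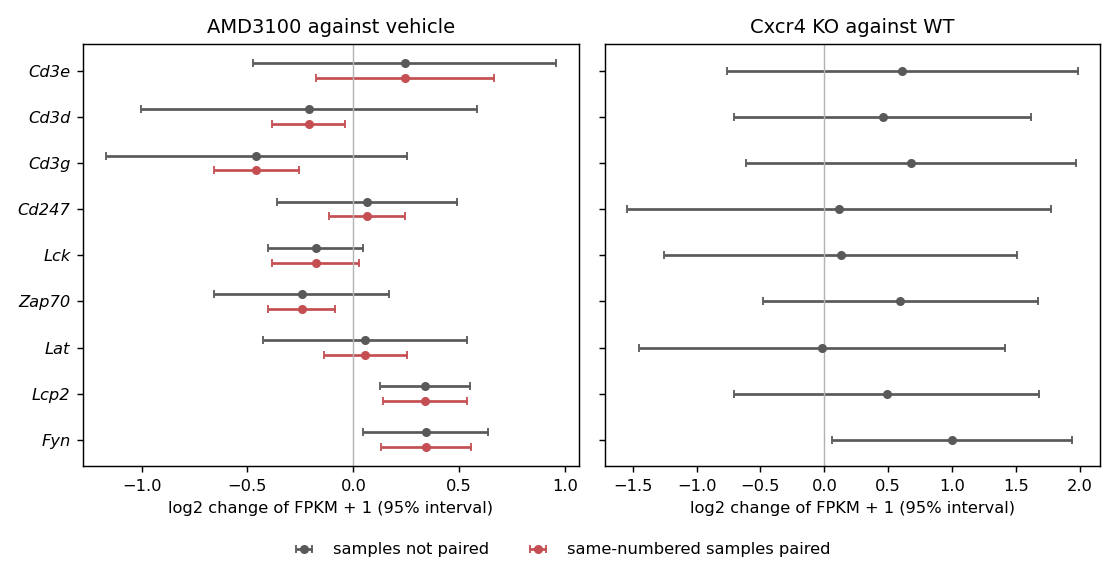
Log2 change of FPKM + 1 with its 95% interval from limma for the 9 genes, AMD3100 against vehicle (left, unpaired in grey and paired in red) and Cxcr4 KO against WT tumours (right). Pairing narrows the interval of Cd3g from -1.17 to 0.25 down to -0.66 to -0.26, and the tumour intervals are wide, with that of Fyn alone above 0.

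Within a library, ratios between members do not depend on the scaling of that library, and they were chosen after the values were seen. The ratio of Cd3e to Cd3g was 0.788, 0.773 and 0.666 in vehicle and 0.982, 1.22 and 1.45 with AMD3100. It was higher in 3 of 3 pairs, and the groups did not overlap. The ratio of Fyn to Lck was 0.0960, 0.0742 and 0.0643 in vehicle and 0.121, 0.105 and 0.108 with AMD3100, also higher in 3 of 3 pairs. Each gave an exact two-sided permutation p of 0.1, the smallest that 3 samples against 3 allow (Benjamini-Hochberg 0.533 over 16 ratio tests). The ratio of Cd3g to Cd3d gave the same exact permutation p of 0.1 in the other direction, with means of 2.41 ± 0.106 in vehicle and 2.04 ± 0.139 with AMD3100.

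The samples numbered 3 held the lowest Cd3d, Cd3e, Cd3g, Zap70 and Fyn values of their group and the highest Cd247 and Lat values. Across the 6 ex vivo libraries Cd247 and Lat kept an almost fixed proportion: their ratio was 0.404, 0.401 and 0.395 in vehicle and 0.426, 0.394 and 0.389 with AMD3100. The SD of their log2 ratio over the 6 libraries was 0.047, the lowest of all 36 pairs of members, followed by Lcp2 with Fyn at 0.10 and Cd3d with Cd3g at 0.15. The largest SDs were those of Lat with Cd3d (0.68) and with Cd3g (0.68), against a median of 0.36. Cd3e varied less with Fyn (0.30) and Lcp2 (0.31) than with its neighbours Cd3d (0.35) and Cd3g (0.43), and Zap70 was closer to Cd3g (0.21) and Cd3d (0.22) than Cd3e was.

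**Figure D3:**
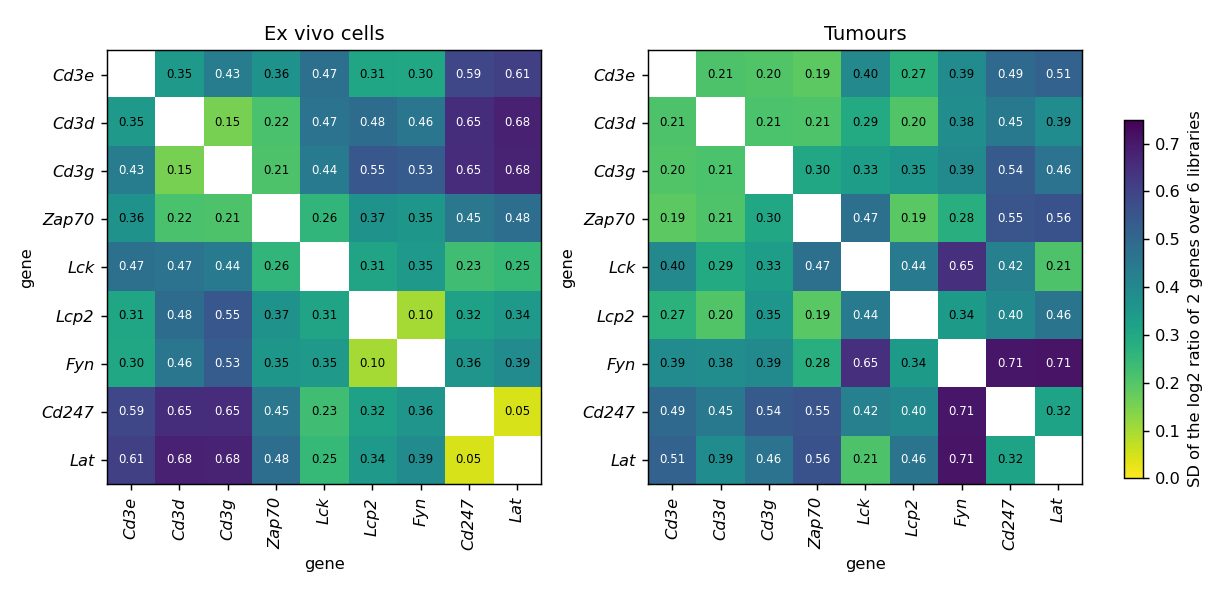
SD over 6 libraries of the log2 ratio between each pair of the 9 genes (both axes list the genes), in ex vivo cells (left) and tumours (right). Yellow marks pairs whose proportion hardly varied: ex vivo these are Cd247 with Lat (0.047), Lcp2 with Fyn (0.10) and Cd3d with Cd3g (0.15), while in tumours the lowest value is 0.19, for Cd3e with Zap70.

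In the tumours the 9 genes were high or low together from one tumour to the next, and none was called between Cxcr4 genotypes. Single members had SDs of 0.67 to 0.98 over the tumours on the log2 scale. Their proportions varied too: the SD of the log2 ratio between members had a median of 0.39, beside 0.36 ex vivo. It reached 0.71 for Lat with Fyn. WT 1 and KO 7 held the highest values of 8 of 9 members, Fyn being the exception, and WT 2 and WT 4 held the lowest of 7 of 9, Lck and Lat being the exceptions. The members took 1.08% of summed FPKM in WT 1 and 0.246% in WT 4. Limma called 0 of 9 members and 0.0372% of all genes (0.0186% higher and 0.0186% lower), and Fyn was the single member with an unadjusted p under 0.05, as were 4.28% of all genes. The median log2 change over the members was 0.49, beside -0.03 over all genes, and 8 of 9 were positive. No member had genotypes that did not overlap, where 9.21% of all genes did (4.01% higher and 5.2% lower). Without WT 1 the members' median was 1.02, and without KO 7, WT 4 or WT 2 it was 0.24, 0.25 or 0.30.

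For the receptor chains, Cd3e was at 1293, 382 and 369 FPKM in WT tumours 1, 2 and 4 and at 562, 1105 and 1048 FPKM in KO tumours 5, 7 and 8. Cd3g was at 684, 199.9 and 277 FPKM in WT and at 331, 754 and 628 FPKM in KO. Cd3d was at 271, 83.6 and 98.5 FPKM in WT and at 133, 241 and 181 FPKM in KO. In all 3 genes every KO tumour exceeded WT 2 and WT 4, and WT 1 overlapped the KO range or lay above it. The log2 changes were 0.61 for Cd3e, 0.68 for Cd3g and 0.46 for Cd3d, with 95% intervals of -0.76 to 1.98, -0.61 to 1.97 and -0.70 to 1.61. Leaving out WT 1 raised them to 1.20, 1.19 and 0.98, still without a call.

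Cd247 spread the most widely, with 318, 71.4 and 65.9 FPKM in WT and 74.7, 249 and 103 FPKM in KO. WT 1 and KO 7 stood far above the other 4 tumours, and the log2 change between genotypes was 0.12 (95% interval -1.54 to 1.77).

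Fyn had the largest change of the kinases, from 63.5 ± 31.3 FPKM in WT to 122 ± 33.8 FPKM in KO. Its values were 99.2, 50.1 and 41.1 FPKM in WT and 93.4, 159 and 113 FPKM in KO, so KO 5 fell just short of WT 1. The log2 change was 1.00 (SE 0.40, 95% interval 0.06 to 1.94, limma adjusted p = 0.986). Lck was at 619, 147 and 253 FPKM in WT and at 191, 468 and 336 FPKM in KO (log2 0.13, 95% interval -1.25 to 1.51). Zap70 was at 151, 60.2 and 49.0 FPKM in WT and at 87.8, 140.1 and 126 FPKM in KO (log2 0.59, 95% interval -0.48 to 1.67). Each kinase thus had WT 2 and WT 4 below KO 7 and KO 8, and differences of either sign remain within the intervals of Lck and Zap70.

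Lcp2 was at 146, 53.1 and 41.8 FPKM in WT and at 73.9, 141 and 86.8 FPKM in KO (log2 0.49, 95% interval -0.71 to 1.68). Lat was at 409, 103 and 158 FPKM in WT and at 113, 346 and 165 FPKM in KO (log2 -0.02, 95% interval -1.45 to 1.41). Of the 9 genes only Lat had a negative log2 change, and it turned positive without WT 1 (0.54), KO 5 (0.34) or KO 8 (0.069).

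**Figure D4:**
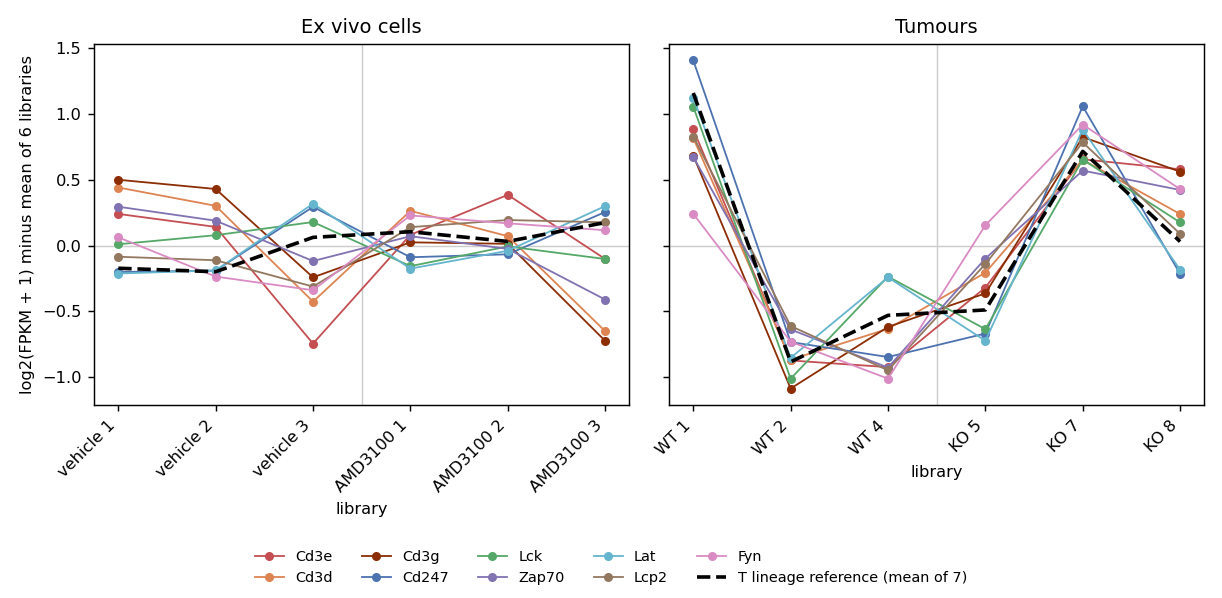
Log2(FPKM + 1) of each of the 9 genes minus its own mean over 6 libraries, for ex vivo cells (left) and tumours (right). Lines only join the points of a gene, and the dashed line is the mean of 7 other T lineage genes. In tumours the members follow the dashed line, Fyn least closely, high in WT 1 and KO 7 and low in WT 2 and WT 4. Ex vivo the CD3 genes and Zap70 drop in the samples numbered 3 and the dashed line does not.

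The T lineage reference moved with the members across the tumours. Its mean log2 level was 8.07, 6.03 and 6.38 in WT 1, 2 and 4 and 6.42, 7.63 and 6.94 in KO 5, 7 and 8, and haemoglobin genes took 1.29%, 5.48% and 23.0% of summed FPKM in those WT tumours and 20.4%, 2.76% and 6.55% in the KO tumours. In bulk RNA, fewer T-ALL cells and less T cell RNA per cell cannot be told apart. The mean of the members stood 0.29, 0.65 and 0.41 above the reference on the log2 scale in WT and 0.75, 0.65 and 0.79 above it in KO. Scaled to the reference, which shifted the median over all genes to -0.20, Fyn had a log2 change of 0.83 and Cd3g of 0.51, and no member was called.

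Markers of cells that also use some of these genes were present in the tumours. The NK and cytotoxic list, whose cells share Lck, Fyn, Zap70, Cd247, Lat and Lcp2 with T cells, had 8 of 8 genes past 1 FPKM. It summed to 525 to 2009 FPKM in WT and 707 to 2215 FPKM in KO. Most of this was Gzma (256 to 1165 FPKM over the tumours) and Nkg7 (123 to 957 FPKM). Gzma was also at 1240 to 3381 FPKM in the ex vivo samples, which listed Ncr1 and Klrk1 at 0. In tumours the natural killer receptor gene Ncr1 was at 19.1, 2.52 and 1.18 FPKM in WT and at 10.98, 7.36 and 15.4 FPKM in KO. Markers of platelets, which use Lat and Lcp2, summed to 2.54 to 15.8 FPKM in WT and 0.766 to 13.8 FPKM in KO, and B cell markers to 1.49 to 10.7 and 9.82 to 17.5 FPKM. The neutrophil list summed to 208, 3082 and 5.52 FPKM in WT and to 65.6, 315 and 159.96 FPKM in KO, so a single tumour, WT 2, stood apart. The part of these cells in the members' values was not tested.

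The ratio of Cd3e to Cd3d was lower in every cultured sample than in every tumour, while the other ratios among the CD3 genes overlapped. The 2 tables were scaled separately, which does not touch a ratio within a library, and no test across tables was made. The ratio of Cd3e to Cd3d was 1.68 to 1.87 in vehicle, 1.84 to 3.06 with AMD3100, 3.75 to 4.78 in WT tumours and 4.23 to 5.79 in KO tumours. The ratio of Cd3e to Cd3g was 0.666 to 0.788 in vehicle and 1.33 to 1.91 over the tumours, and the AMD3100 samples, at 0.982 to 1.45, overlapped the tumours. The ratio of Cd3g to Cd3d was 2.31 to 2.52 in vehicle and 2.39 to 3.47 over the tumours, so these overlapped. The ratio of Fyn to Lck was 0.0643 to 0.0960 in vehicle and 0.160 to 0.488 over the tumours, 0.160, 0.341 and 0.163 in WT and 0.488, 0.340 and 0.337 in KO. For Fyn to Lck the genotype means were 0.221 ± 0.103 and 0.388 ± 0.0866, with an exact two-sided permutation p of 0.3 (Benjamini-Hochberg 0.533).

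**Figure D5:**
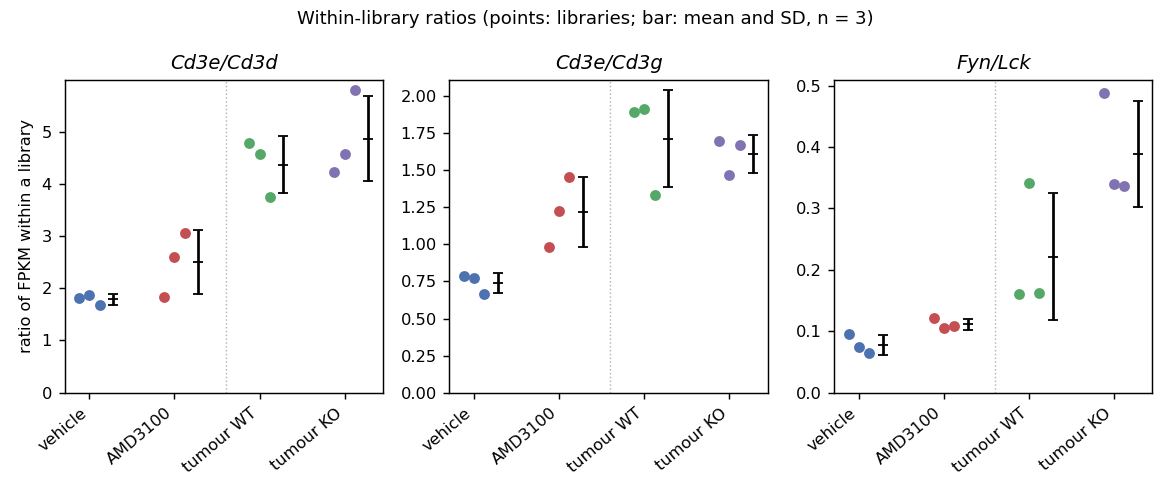
Ratios of FPKM within each library for Cd3e to Cd3d, Cd3e to Cd3g and Fyn to Lck in the 4 groups, with points for libraries and bars for the mean and SD of 3. The tumours lie above the vehicle samples in all 3 ratios, and AMD3100 samples lie above vehicle in Cd3e to Cd3g and Fyn to Lck without overlap.

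Further along the pathway, a list of 36 TCR signalling genes besides the members was followed, all of which passed the minimum in both tables. With AMD3100, 7 of them rose and none fell in the paired fit, where 9.96% of all genes rose and 9.92% fell, and none was called unpaired. The median log2 change of the list was 0.25, beside 0.0022 over all genes, and 29 of 36 were positive. Nfatc1, a calcium-driven transcription factor, rose from 34.8 ± 2.55 to 59.8 ± 7.79 FPKM (log2 0.76, limma adjusted p = 0.0191 paired and 0.0544 unpaired). Sos1, which loads Ras with GTP, rose from 9.64 ± 1.23 to 14.97 ± 1.44 FPKM (log2 0.59, limma adjusted p = 0.0363 paired), and Itpr2, a calcium release channel, from 54.7 ± 8.77 to 74.0 ± 2.91 FPKM (log2 0.44, limma adjusted p = 0.0310 paired). Nfatc2, Was and Cd28 also rose, and they are named because they were called.

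Of 23 negative regulators of the receptor, 22 passed the minimum ex vivo (Ubash3b did not). The paired fit called 3 higher and 1 lower, where 9.96% of all genes were called higher and 9.92% lower. None of the 22 was called unpaired. The median log2 change of this list was 0.14, beside 0.0022 over all genes. Cbl, a ubiquitin ligase that marks activated receptors for degradation, rose from 62.7 ± 12.6 to 118 ± 19.5 FPKM (log2 0.91, limma adjusted p = 0.0172 paired and 0.0708 unpaired). Pag1, the membrane anchor of the LCK inhibitor CSK, rose from 44.0 ± 8.36 to 70.2 ± 16.7 FPKM (log2 0.65, limma adjusted p = 0.0191 paired). Ptpn6, the phosphatase SHP-1, fell from 178 ± 29.7 to 111 ± 17.1 FPKM (log2 -0.67, limma adjusted p = 0.0197 paired). Cblb, the relative of Cbl, was the third called higher.

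In tumours, limma called none of the 36 signalling genes and none of the 23 regulators between genotypes, and the list medians were 0.30 and 0.41, beside -0.03 over all genes. The smallest unadjusted p values in the signalling list belonged to Ptcra, Orai1 and Nfatc2. Ptcra, the pre-T cell receptor alpha gene, was at 124, 23.6 and 57.8 FPKM in WT and at 6.98, 7.55 and 25.6 FPKM in KO, so that only KO 8 exceeded WT 2 (log2 -2.21, limma adjusted p = 0.986). The calcium channel gene Orai1 had a log2 change of 1.33 and Nfatc2 of 1.45. Among the regulators the first 3 were Cblb (log2 0.75), the LCK-inactivating kinase gene Csk (log2 0.44) and the adaptor gene Dok1 (log2 0.42), each at a limma adjusted p of 0.986.

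The genes whose pattern over libraries was most like the mean of the 9 members were sought among 7467 others with a mean of at least 5 FPKM in both tables. Likeness was the SD, over the 6 libraries of a table, of the difference between a gene's log2(FPKM + 1) and the members' mean, and the larger of the 2 SDs was ranked. The lowest 5 were Plcg1 (0.14), Prkcq (0.16), Ptpn22 (0.16), Skap1 (0.17) and Suv420h1 (0.17), against a median of 0.83 over all genes compared. The members themselves had SDs of 0.17 (Zap70) to 0.36 (Cd3g) ex vivo and 0.09 (Cd3d) to 0.39 (Fyn) in tumours. The largest SD in tumours, that of Fyn, was barely above that of Cd247 (0.38), and ex vivo that of Cd3g was barely above that of Lat (0.35). Each member is itself part of the mean it was compared with.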

How the data were processed

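Polyadenylated RNA of 12 samples was sequenced as 50-base single reads from strand-specific libraries (labels' protocols). The authors deposited the values as FPKM in 2 tables of 6 samples each. CASAVA, TopHat and build mm9 are named, per the submitters' processing notes. The program, annotation and strand setting behind the FPKM are not stated in these sources, and Cd247, Lck, Zap70, Lat, Lcp2 and Fyn overlap other annotated genes, so reads of an overlapping gene may not be told apart. Read totals are unknown, so no counting interval is given. A value listed at exactly 0 may be a failed estimate.

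Values were taken as log2(FPKM + 1). Genes averaging 1 FPKM or more were fitted with limma 3.58.1 in R 4.3.3 (eBayes with a mean trend, two-sided), each table alone, with Benjamini-Hochberg adjustment over all kept genes and a call under 0.05. The fit without pairing was tested on simulated data, with planted changes larger than that of any member. The paired fit was not tested in this way. Columns were matched to samples by name. Same-numbered ex vivo samples deviated together from their group means (correlations across genes of 0.467, 0.579 and 0.619, all over 0.1), so paired values with the number as a block stand beside the unpaired ones. The pairing comes from the shared numbers and these values, as the labels do not say what a number marks. Tumour genotypes share no number.

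The members and gene lists were chosen with earlier results of these data known. Named were all members, Cxcr4, the 3 genes with the smallest p of each list, and the 5 genes most like the members. A listed gene is not reported here. Transcript lengths came from GENCODE M21 and covered 98.4% and 98.3% of tested genes. Stromal, macrophage, erythroid and mature T cell markers were also summed. Alternatives were other pseudocounts, filters and scalings, a fit without trend, a length correction, and leaving out samples.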

Additional observations from a re-analysis of the deposited data

How the results depend on the processing

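Under every alternative run, limma called no member in tumours, and none ex vivo without the replicate block. Ex vivo the unpaired count of 13 genes (5 higher, 8 lower) became 8 (2 and 6) without a filter, 188 (58 and 130) at a mean of 5 FPKM, 3 (2 and 1) with quantile normalisation, 896 (37 and 859) with scaling to the T lineage genes, 1 (higher) without the trend and 3 to 5 without any 1 sample. With the replicate block it was 2036, and then 1264 with the length correction, 3159 (337 and 2822) with T lineage scaling, 1914 with quantile normalisation, 2033 with median-of-ratios scaling and 7 to 1207 without any 1 pair. With the replicate block 3 members were called, and then 1 with the length correction, 4 with T lineage scaling (all lower), 3 with quantile normalisation, 2 with median-of-ratios scaling (Cd3g and Lcp2) and 0 without any 1 pair. The paired scalings and the paired leave-outs were chosen after seeing the data.

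Members with small changes turned sign. With T lineage scaling, paired or not, Cd247 was at -0.14 and Lat at -0.15, and without any 1 sample Cd247 ran from -0.045 to 0.23, Lat from -0.080 to 0.23, Cd3d from -0.48 to 0.062 and Cd3e from -0.069 to 0.42. The tumour count of 4 genes became 0 without a filter (538 genes at an unadjusted p under 0.05), 0 with T lineage scaling (160 genes) and 0 to 4 without any 1 tumour (0 without KO 7 or KO 8, with 325 and 275 genes at an unadjusted p under 0.05). In tumours Cd247 and Lck turned to -0.054 and -0.042 with T lineage scaling and to -0.014 and -0.0021 with haemoglobin genes left out, and Lat to 0.030 with the length correction. Without any 1 tumour Cd247 ran from -0.38 to 0.85, Lck from -0.35 to 0.69 and Lat from -0.46 to 0.54. The causes were not tested. Read totals are unknown, and each group holds 3 samples.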
